A study of Mus musculus with 12 samples.

Results

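Col17a1, Itga6, Itgb4, Dst, Plec and Cd151 encode the parts of the hemidesmosome, the junction that holds a basal keratinocyte to the basement membrane. The 6 genes were found by the gene name of the probes in the array files. They had 11 of the 55681 probes and made up 6 of the 34763 gene names on the array. Dst had 4 probes, Itga6 and Cd151 had 2 each, and Col17a1, Itgb4 and Plec had 1 each. Each gene was read from its brightest probe (by mean over the 12 arrays), and the other probes are described as well. A second Itga6 probe fell below the well-above-background mark of the scanner software on 1 array, and all other values of the 11 probes were above it.

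RNA from sorted mouse skin cells was hybridised to 12 one-colour arrays, 1 per group. Hair follicle stem cells (HFSCs) were sorted for high CD34 and high ITGA6 without SCA1. Cells of the interfollicular epidermis (IFE) were sorted for high ITGA6 with high SCA1, and the other population was total epidermis. Young wild-type C57BL/6 mice were 8 weeks old and aged ones at least 22 months, and both gave unplucked HFSCs, plucked HFSCs, IFE and total epidermis. Control mice were wild-type C57BL/6 aged 12 weeks that had been injected with 2 mg of tamoxifen on 5 days, and they gave unplucked and plucked HFSCs. The Col17a1 conditional knockout (cKO) mice, also 12 weeks old and injected with tamoxifen, gave the same 2 samples. Their labels name the K14 promoter, which is active in basal keratinocytes, and give no strain. Plucked cells came from skin depilated by hand 3 days earlier. The labels do not say whether samples came from separate or pooled animals, and no group has a replicate. The p-values rest on how far the arrays depart from an additive fit, and that spread may be technical. An effect that truly differs between matched pairs, such as plucking between mouse types or population between ages, enters that spread too.

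The share of spots well above background ran from 49.71% to 64.97% per array. By its median correlation with the other arrays, an array stood lowest for unplucked control (0.888) and unplucked cKO HFSCs (0.893), and the other 10 lay between 0.907 and 0.93. Slide 1 held the young samples in row 1 and the aged in row 2, and slide 2 held control and cKO samples. Age and slide row therefore cannot be told apart, nor can control against young and the slide, nor IFE, total epidermis and HFSCs and the slide column, nor cKO against control and the slide column. Of the sorting markers, Cd34 was at 5.62 to 6.68 in unplucked HFSCs, 3.62 to 4.39 in plucked HFSCs and 0.56 and 0.76 in total epidermis, on the log2 scale relative to the 75th percentile of the array. In IFE it was at -3.04 on the young array and below the background mark on the aged one. Ly6a, which encodes SCA1, was at 3.33 to 4.37 in total epidermis and IFE and at most 0.30 in HFSCs. The keratins of basal cells, Krt5 and Krt14, gave 7.80 or more on every array.

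In a hemidesmosome, integrin α6β4 and collagen XVII (the product of Col17a1) cross the cell membrane and bind laminin outside the cell. Inside it, plectin and the epithelial product of Dst, also called BPAG1e, link them to keratin filaments, and the tetraspanin CD151 sits beside the integrin. In the bulge of the hair follicle, COL17A1 is known for holding stem cells in place, and its loss with age has been tied to hair thinning. Proteases, members of the ADAM family among them, can shed its outer part. Levels below are log2 values relative to the 75th percentile of the array, and differences are between such levels.

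Each probe reads a short stretch of a transcript, and where a gene has several probes the results turn on which stretch was read. The probes of the array are 60 bases long, and 30 bases of each are shown 5′ to 3′, as deposited. For Itgb4 and the third Dst probe the stretch around AATAAA, the polyadenylation signal, is shown, with the motif in capitals. For the others the first 30 bases are shown. AATAAA on the printed strand was present in 5602 of the 55681 probes (10.1%) and in these 2 of the 11.

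Col17a1, A_55_P1958906: ggcacagttggtttttatttaagcactttc
Itga6, A_55_P2015670: gagaatgagaacctgggaggtcttgttgtt
Itga6, A_55_P1958840: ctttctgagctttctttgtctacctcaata
Itgb4, A_55_P1998299: tgttctgcacttAATAAAaggttttgctac
Cd151, A_55_P1960216: acctgctgcttgtaccgaagcctcaagctg
Cd151, A_51_P343252: atgttcctgacactgtctccttttggagca
Dst, A_51_P489996: gaaagctgattttgatttccacacaggact
Dst, A_51_P300434: aggaagaaagaacttaacatgaactgatgt
Dst, A_55_P2161132: tagtatgcatttAATAAAacatattcactt
Dst, A_52_P445253: cgaaggtggcgaaggcattggtgcaaacga
Plec, A_55_P2139027: tccactaaccttgagctggtggcaggtgga

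On mm9, the build named in the array files, the Col17a1 probe lies at chr19:47720894-47720953 on the minus strand. The Itga6 probe in use lies at chr2:71694756-71694815, and the second one at chr2:71690633-71690692. The Itgb4 probe lies at chr11:115869666-115869725, the Plec probe at chr15:76001454-76001513 on the minus strand, and the Cd151 probes at chr7:148656555-148656614 and chr7:148657237-148657297. The Dst probe in use, listed for transcript NM_010081, lies at chr1:34239785-34239844. The probe listed for NM_134448 lies at chr1:34364644-34364703 and that for NM_001276764 at chr1:34365447-34365506, further along the gene. The fourth, listed for NM_133833, spans chr1:34209337-34211389, which is longer than the probe, so its 60 bases are split over more than 1 block of the genome. Exon and UTR annotation on mm9 was not used here.

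**Figure D1:**
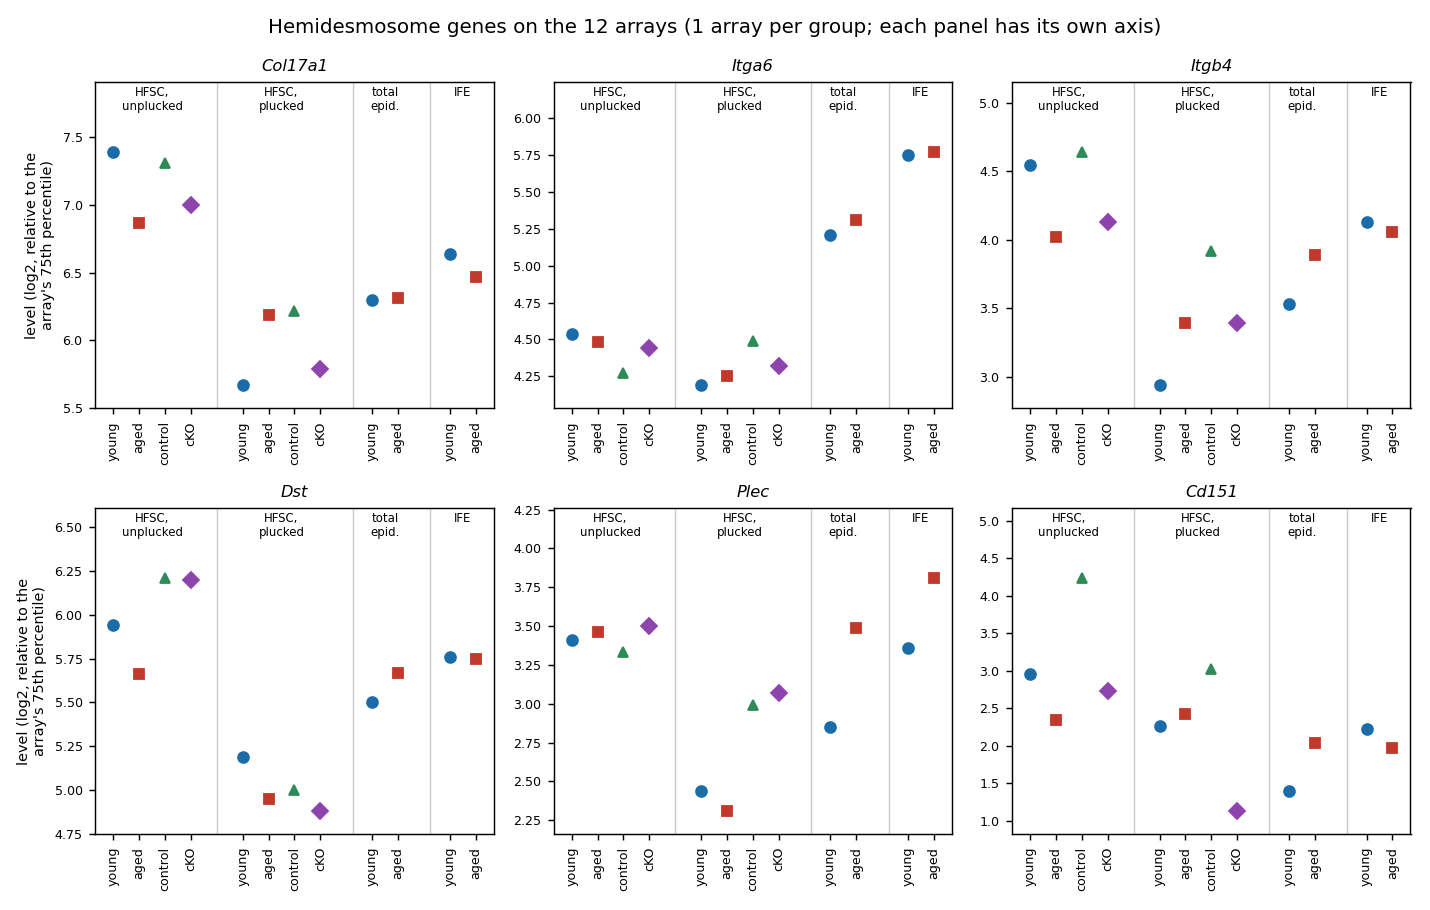
Level of each hemidesmosome gene on the 12 arrays, as log2 relative to the 75th percentile of the array, with 1 point per array and an axis of its own in each panel; there are no replicates, so no error bars. Col17a1, Itgb4, Dst and Plec lie lower on all 4 plucked than on all 4 unplucked HFSC arrays, while Itga6 separates HFSCs (4.19 to 4.54) from total epidermis and IFE (5.21 to 5.77).

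Col17a1, the gene deleted in the cKO, encodes the transmembrane collagen of the hemidesmosome. Its level in unplucked HFSCs was 7.39 in young, 6.87 in aged, 7.31 in control and 7.0 in cKO cells. In plucked HFSCs it was 5.67 in young, 6.19 in aged, 6.22 in control and 5.79 in cKO cells. Total epidermis gave 6.30 (young) and 6.31 (aged), and IFE 6.64 (young) and 6.47 (aged). The 4 unplucked HFSC arrays were thus the 4 highest of the 12. IFE and total epidermis followed, and the plucked HFSC arrays were the 4 lowest. The share of all genes with these sets of arrays in this order was not counted. Within these sets the range was 0.52 in unplucked HFSCs, 0.55 in plucked HFSCs and 0.33 over the 4 epidermal arrays. The cKO array was not the lowest of its set, either without plucking (aged cells were lower) or after it (young cells were lower).

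Against the control, cKO cells had a Col17a1 level lower by 0.31 without plucking and by 0.43 after it. The fitted difference was -0.37 ± 0.39 (SE, n = 2 pairs, limma adjusted p = 0.923), a ratio of 1.29. The labels do not say which part of the gene was deleted, so the signal of this probe does not check the genotype. In bulk RNA, fewer cells with the transcript and less of it per cell cannot be told apart.

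Between aged and young HFSCs, Col17a1 differed in opposite directions in the 2 pairs. It was lower in aged cells by 0.52 without plucking (7.39 in young, 6.87 in aged) and higher in them by 0.53 after plucking (5.67 in young, 6.19 in aged). The fitted difference was 0.01 ± 0.39 (SE, n = 2 pairs, limma adjusted p = 0.999), and the estimate without the plucked pair was -0.52. The test of whether plucking acted differently in aged cells than in young and control cells gave a difference of 0.73 ± 0.74 (limma adjusted p = 0.994). In total epidermis and IFE, aged and young arrays differed by 0.01 and -0.17 (fitted -0.08 ± 0.25, n = 2 pairs, limma adjusted p = 0.953).

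Itga6 encodes the α6 subunit, the partner of β4 in the hemidesmosome and of β1 outside it, and its protein was one of the sorting markers. In HFSCs its level was 4.54 in young, 4.48 in aged, 4.27 in control and 4.44 in cKO cells without plucking. After plucking it was 4.19, 4.25, 4.49 and 4.32 in the same order. In the epidermal arrays it was 5.21 (young total), 5.31 (aged total), 5.75 (young IFE) and 5.77 (aged IFE). All 8 HFSC arrays lay below all 4 epidermal arrays, which was the case for 4.81% of the 26425 genes compared this way.

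The Itga6 difference between IFE and HFSCs was 1.25 ± 0.27 (SE, n = 2 pairs, 2.38-fold), and higher in IFE in both pairs, as were 37% of all genes. It did not pass over all genes (limma adjusted p = 0.0823); in this comparison 2.1% of 23961 genes passed as higher in IFE. Between total epidermis and HFSCs the difference was 0.75 ± 0.27 (SE, n = 2 pairs, limma adjusted p = 0.213), higher in both pairs like 34% of all genes, where 1.87% of genes passed as higher in total epidermis. With normexp background correction and quantile normalization both passed, at 1.23 (limma adjusted p = 0.0212, 2.77% of genes called higher) and 0.91 (limma adjusted p = 0.0483, 2.64% called higher). Taking the mean of both Itga6 probes gave 1.73 for IFE (limma adjusted p = 0.0374, 2.54% called higher) and 1.43 for total epidermis (limma adjusted p = 0.0603).

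The second Itga6 probe, listed for transcript ENSMUST00000139760, was likewise lower in unplucked HFSCs than in the epidermal arrays, and spread more widely among HFSCs. Without plucking it was at -1.33 in young, -0.99 in aged and -3.21 in control HFSCs, and at -3.56, not well above background, in cKO HFSCs. After plucking it was at -0.96, -0.97, 0.97 and 0.02 in the same order. Total epidermis gave 0.86 (young) and 1.04 (aged), and IFE 0.78 (young) and 1.33 (aged). The control and cKO arrays thus held its lowest values without plucking and, among HFSCs, its highest after it. Plucked control HFSCs lay above young total epidermis and young IFE, so HFSCs and epidermal arrays overlapped at this probe, as did IFE and total epidermis.

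In a fit of every probe on its own, chosen after seeing the data, this second probe rose in IFE against HFSCs by 2.21 ± 0.29 (SE, n = 2 pairs, limma adjusted p = 0.0352). It rose in total epidermis against HFSCs by 2.11 ± 0.29 (SE, n = 2 pairs, limma adjusted p = 0.0448). Of 36176 probes, 1.87% were called higher in IFE and 1.66% in total epidermis. No other probe of the 6 genes passed in that fit in any comparison. Plucking gave 2.04 ± 0.85 for it (SE, n = 4 pairs, limma adjusted p = 0.322), higher in 4 of 4 pairs, with pair differences from 0.01 to 4.18. For the probe in use the plucking difference was -0.12 ± 0.24 (SE, n = 4 pairs, limma adjusted p = 0.821). The ratio of the second to the first probe, again fitted after seeing the data, changed by 2.16 ± 0.80 with plucking (limma adjusted p = 0.61) and by 1.36 ± 0.30 between total epidermis and HFSCs (limma adjusted p = 0.289). No gene passed in that limma ratio fit in any comparison; for plucking, 0 of 7566 genes did, with 7.96% at an unadjusted p under 0.05.

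Itgb4 encodes the β4 subunit, whose long cytoplasmic tail binds plectin. In unplucked HFSCs its level was 4.55 in young, 4.02 in aged, 4.64 in control and 4.13 in cKO cells. In plucked HFSCs it was 2.94, 3.39, 3.92 and 3.39 in the same order. Total epidermis gave 3.53 (young) and 3.89 (aged), and IFE 4.13 (young) and 4.06 (aged). Unplucked and plucked HFSCs did not overlap, and IFE lay inside the range of unplucked HFSCs. Unlike Itga6, its partner, Itgb4 gave no higher level in IFE: the difference from HFSCs was -0.20 ± 0.33 (SE, n = 2 pairs, limma adjusted p = 0.798), and whether the partners differ was not tested. In total epidermis it was lower than in HFSCs in both pairs (-0.58 ± 0.33, limma adjusted p = 0.407), as were 27.3% of all genes.

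Cd151 encodes the tetraspanin that associates with α6 and α3 integrins. At the probe in use, unplucked HFSCs had levels of 2.96 (young), 2.34 (aged), 4.24 (control) and 2.73 (cKO), and plucked ones 2.26, 2.42, 3.02 and 1.13 in the same order. In the epidermal arrays it was 1.40 (young total), 2.04 (aged total), 2.22 (young IFE) and 1.97 (aged IFE). The control array stood highest among both unplucked and plucked HFSCs. Its range over the 12 arrays, 3.11, was the widest of the 6 genes, and its SD of 0.81 lay above that of 79.7% of the 16024 genes well above background on every array.

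In cKO against control HFSCs, Cd151 was lower by 1.51 without plucking and by 1.89 after it. The fitted difference was -1.70 ± 0.50 (SE, n = 2 pairs, limma adjusted p = 0.702), a ratio of 3.26. The second Cd151 probe did not follow: its levels were 0.90 (control) and 1.75 (cKO) in unplucked and 0.92 (control) and 0.52 (cKO) in plucked HFSCs. Its fitted difference was 0.23 ± 0.45 (SE, n = 2 pairs, limma adjusted p = 0.965). The ratio of the second to the first probe differed by 1.93 ± 0.62 between cKO and control (SE, n = 2 pairs, limma adjusted p = 0.568). Both probes are listed for the same transcript, NM_009842.

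**Figure D2:**
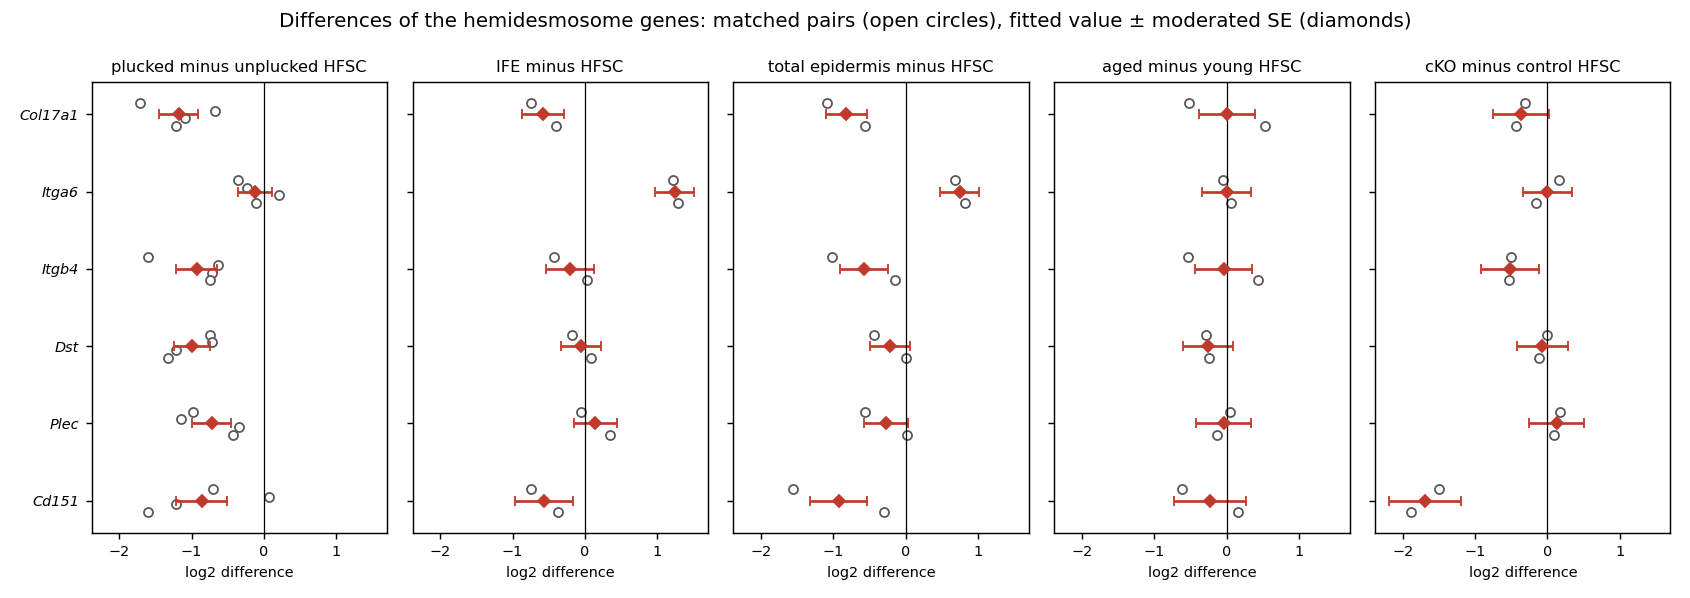
Differences of the 6 genes in 5 comparisons, in log2 units; open circles are matched pairs of arrays (4 for plucking, 2 elsewhere) and diamonds the fitted value with its moderated standard error. For plucking, every pair of Col17a1, Itgb4, Dst and Plec lies below 0, and Itga6 lies above 0 in both pairs of IFE and of total epidermis against HFSCs.

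Dst encodes the plakins of the BPAG1 family, of which keratinocytes make the epithelial form and nerve and muscle make longer forms. At the probe in use its level in unplucked HFSCs was 5.94 in young, 5.66 in aged, 6.21 in control and 6.20 in cKO cells. In plucked HFSCs it was 5.19, 4.95, 5.00 and 4.88 in the same order. Total epidermis gave 5.50 (young) and 5.67 (aged), and IFE 5.76 (young) and 5.75 (aged). Plucked HFSCs lay below every other array, and IFE lay within the range of unplucked HFSCs. How often plucked HFSCs lay lowest among all genes was not counted. The differences from HFSCs were -0.05 ± 0.28 in IFE and -0.22 ± 0.28 in total epidermis (SE, n = 2 pairs, limma adjusted p = 0.95 and 0.722).

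The probe listed for NM_134448 gave another order of populations. Unplucked HFSCs had levels of 2.09 (young), 2.14 (aged), 2.69 (control) and 2.70 (cKO), and plucked ones 0.42, 0.45, 1.43 and 0.98 in the same order. In the epidermal arrays it was 0.50 (young total), 0.11 (aged total), 0.63 (young IFE) and 0.18 (aged IFE). Unplucked HFSCs thus lay above all other arrays, epidermal ones included. The share of all probes in this order was not counted. In the fit of every probe it differed by -1.71 ± 0.31 in IFE (SE, n = 2 pairs, limma adjusted p = 0.0622) and by -1.81 ± 0.31 in total epidermis (SE, n = 2 pairs, limma adjusted p = 0.0609) from HFSCs, where 1.98% and 1.41% of probes were called lower. Plucking gave -1.59 ± 0.26 (SE, n = 4 pairs, limma adjusted p = 0.0906), lower in 4 of 4 pairs, where 0 of 38675 probes passed in either direction and 16.4% had an unadjusted p under 0.05.

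The ratio of this probe to the probe in use was lower by 1.67 ± 0.36 in IFE (log2, SE, n = 2 pairs, limma adjusted p = 0.231) and by 1.59 ± 0.36 in total epidermis (limma adjusted p = 0.296) than in HFSCs. The probe listed for NM_001276764 was highest in unplucked control (1.81) and cKO HFSCs (2.24) and lay between -1.75 and 0.06 on the other 10 arrays. It was lower after plucking in 4 of 4 pairs, by 0.38 to 3.45 (fitted -1.90 ± 0.53, limma adjusted p = 0.196). The probe listed for NM_133833 lay between -2.48 and 1.01 and was lower after plucking in 2 of 4 pairs.

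**Figure D3:**
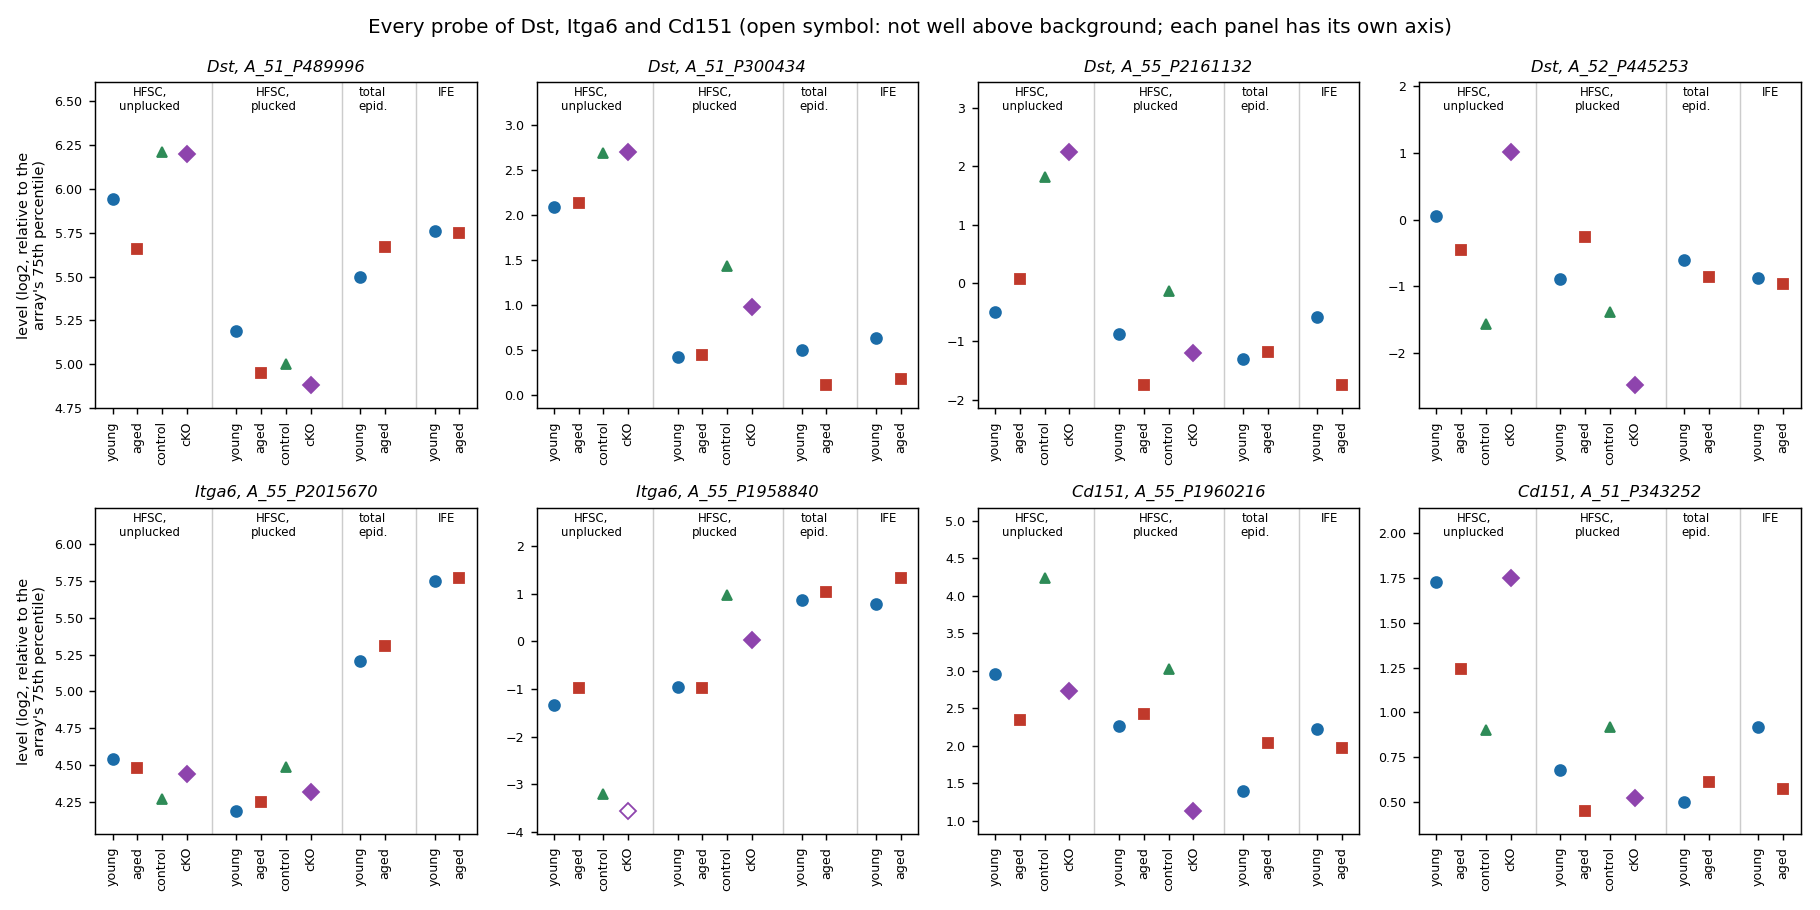
Level of every probe of Dst, Itga6 and Cd151 on the 12 arrays (log2 relative to the 75th percentile of the array, 1 point per array, each panel with its own axis); open symbols are not well above background. The Dst probe A_51_P300434 is highest in unplucked HFSCs (2.09 to 2.70) and at most 0.63 in total epidermis and IFE, whereas A_51_P489996 is alike in IFE (5.75 and 5.76) and unplucked HFSCs (5.66 to 6.21).

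Dst is also a gene whose start sites in RefSeq lie far apart, so the windows upstream of both are shown, beside that of Col17a1. They are taken from RefSeq on GRCm38.p6, a later build than that of the probes, and each holds the 250 bases before a listed start site, on the strand of the gene. Of the 6 genes, Col17a1, Dst and Cd151 matched an entry of the promoter table. Capitals mark TATAAA, the core of a TATA box, and GGGCGG, a GC box, each searched on both strands. The window of Dst start site 1 lies at chr1:34011345-34011594 on the plus strand, that of start site 2 at chr1:34160010-34160259 on the plus strand, and that of Col17a1 at chr19:47692043-47692292 on the minus strand.

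Dst start site 1: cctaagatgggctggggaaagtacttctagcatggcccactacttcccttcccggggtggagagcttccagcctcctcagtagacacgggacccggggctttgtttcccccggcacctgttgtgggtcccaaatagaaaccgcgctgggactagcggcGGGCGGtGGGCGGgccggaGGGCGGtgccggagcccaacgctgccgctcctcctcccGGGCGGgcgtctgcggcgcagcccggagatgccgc
Dst start site 2: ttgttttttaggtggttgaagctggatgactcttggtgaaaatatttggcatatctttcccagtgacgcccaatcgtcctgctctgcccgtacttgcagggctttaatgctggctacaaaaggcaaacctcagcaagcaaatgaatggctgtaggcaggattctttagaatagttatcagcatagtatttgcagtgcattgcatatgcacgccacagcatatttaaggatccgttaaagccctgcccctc
Col17a1: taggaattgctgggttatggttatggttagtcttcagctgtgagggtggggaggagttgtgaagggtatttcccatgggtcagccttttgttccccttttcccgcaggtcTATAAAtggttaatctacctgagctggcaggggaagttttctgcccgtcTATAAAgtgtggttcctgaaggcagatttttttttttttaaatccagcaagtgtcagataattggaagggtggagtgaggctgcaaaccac

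The first Dst window had a GC content of 68.8% and held GGGCGG 4 times and TATAAA 0 times. The second had 45.2% GC and held neither, and that of Col17a1 had 46.0% GC and held TATAAA 2 times and GGGCGG 0 times. Of 32851 such windows in the table, 12.4% held TATAAA and 32.7% GGGCGG, and the median GC content was 52.4%. The table does not say which transcript of Dst starts at which site, so no probe was assigned to a window. A match describes the letters of the window only.

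Plec encodes plectin, the plakin that ties β4 to keratin. Its level in unplucked HFSCs was 3.41 in young, 3.46 in aged, 3.33 in control and 3.50 in cKO cells, a range of 0.17. In plucked HFSCs it was 2.44, 2.31, 2.99 and 3.07 in the same order. Total epidermis gave 2.85 (young) and 3.49 (aged), and IFE 3.36 (young) and 3.81 (aged). The 4 plucked arrays lay below the 4 unplucked HFSC arrays. In the epidermis, Plec was the member with the largest difference by age: aged arrays were higher by 0.64 in total epidermis and 0.45 in IFE (fitted 0.54 ± 0.25, n = 2 pairs, limma adjusted p = 0.777). No gene of the array passed in that comparison, and 6.52% had an unadjusted p under 0.05.

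Plucking sets the resting follicle growing again, and the comparison asks how HFSCs differ 3 days later. At the probe in use, all 6 genes had a fitted difference below 0, but for Itga6 the direction turned with the probe (2.04 at the second probe and 0.96 for the mean of both). None passed over all genes, where 127 of 25428 genes (0.499%) passed in either direction and 0.106% as lower. At an unadjusted p under 0.05, 17.6% of all genes passed. Col17a1 differed by -1.18 ± 0.27 (2.26-fold, limma adjusted p = 0.134, lower in 4 of 4 pairs), with pair differences of -1.72 in young, -0.68 in aged, -1.09 in control and -1.22 in cKO cells. Dst differed by -1.0 ± 0.25 (limma adjusted p = 0.151), Itgb4 by -0.93 ± 0.28 (limma adjusted p = 0.198) and Plec by -0.72 ± 0.27 (limma adjusted p = 0.261), each lower in 4 of 4 pairs. Cd151 differed by -0.86 ± 0.35 (limma adjusted p = 0.296) and was lower in 3 of 4 pairs, as was Itga6.

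The median difference of the 6 genes was -0.90, against -0.06 over all genes tested. In 4 of the 6 the plucked arrays did not overlap the unplucked ones and lay lower, which held for 4.42% of all genes, and 15.2% of all genes were lower in every pair. With normexp background correction and quantile normalization, Col17a1 (-1.14, limma adjusted p = 0.0365) and Dst (-1.05, limma adjusted p = 0.0325) passed, where 1.55% of genes were called lower. Within slide 1 (young and aged) and slide 2 (control and cKO) the difference was -1.20 and -1.15 for Col17a1, -1.13 and -0.73 for Itgb4, and -0.73 and -1.26 for Dst. It was -1.06 and -0.39 for Plec, -0.32 and -1.41 for Cd151, and -0.29 and 0.05 for Itga6. Leaving out the unplucked control and cKO arrays, the 2 that stood apart, gave the slide 1 estimates again, so it is not a further check. Each mouse type has its own term in the fit, so the plucked control and cKO arrays left alone add nothing to the estimate. Col17a1 differed by -1.20, Itgb4 by -1.13, Dst by -0.73, Plec by -1.06, Cd151 by -0.32 and Itga6 by -0.29, and 0 genes passed in all.

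Markers of the sort and of other cells are given beside these values, and none passed for plucking. Cd34, the HFSC sorting marker, differed by -2.40 ± 0.30 (SE, n = 4 pairs, limma adjusted p = 0.0558). The summed signal of 6 fibroblast markers, relative to the 75th percentile, was 4.27 to 9.18 in unplucked and 2.07 to 2.47 in plucked HFSCs. Most of that sum was Col1a2 (-1.90 ± 0.29, limma adjusted p = 0.0712, lower in 4 of 4 pairs). Of the 4 fibroblast markers tested, 2 were above and 2 below 0, with a median of 0.15. Dcn differed the other way (1.43 ± 0.36, limma adjusted p = 0.151, higher in 4 of 4 pairs). It was well above background on only 3 of the 12 arrays, so part of its pair differences lies at background. At most 4 of these markers were well above background on any HFSC array, and Pdgfra and Lum on none of the 12. The summed signal of 6 keratinocyte markers was 987 to 1520 in unplucked and 942 to 1220 in plucked HFSCs. The part of fibroblast RNA or of the sort in the differences of the hemidesmosome genes was not tested.

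Whether plucking acted differently in aged or cKO cells was tested as an interaction against young and control cells. None of the 6 genes passed: the limma adjusted p was 0.994 for all 6 by age and 0.966 to 1 by cKO, and 0 of 25428 genes passed for either, with 4.62% and 7.29% at an unadjusted p under 0.05. The largest interactions were those of Cd151, 1.03 ± 0.72 in aged and -0.64 ± 0.72 in cKO cells.

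Among populations, the members split. In IFE against HFSCs, 2 of the 6 were above 0 and 4 below, with a median of -0.12 against 0.09 over all genes. None passed, beside 1134 of all 23961 genes (4.73%), or 20.1% at an unadjusted p under 0.05. Col17a1 was lower in IFE in both pairs, like 27.4% of all genes (-0.58 ± 0.29, limma adjusted p = 0.362), as was Cd151 (-0.56 ± 0.40, limma adjusted p = 0.513), while Plec differed by 0.15 ± 0.30 (limma adjusted p = 0.834). In total epidermis against HFSCs, all but Itga6 were below 0, with a median of -0.42 against 0.07. None passed, beside 933 of all genes (3.89%), or 20.8% at an unadjusted p under 0.05. Col17a1 differed there by -0.82 ± 0.29 (limma adjusted p = 0.213), Cd151 by -0.93 ± 0.40 (limma adjusted p = 0.284) and Plec by -0.27 ± 0.30 (limma adjusted p = 0.668). Between IFE and total epidermis all 6 were above 0, from 0.17 for Dst to 0.50 for Itga6, with a median of 0.38 against 0.02, and each had a limma adjusted p of 1. No gene of the array passed in that last comparison, and 4.08% had an unadjusted p under 0.05. Of the 6 keratinocyte markers, 5 were also above 0 there, with a median of 0.18.

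Total epidermis, which the labels do not describe as gated for ITGA6, also held transcripts of immune cells. The summed signal of 6 immune markers was 8.68 and 18.2 there, 2.48 and 2.69 in IFE and 1.16 to 3.29 in HFSCs. Of these markers, Cd3e, part of the T cell receptor complex, rose in total epidermis against HFSCs by 2.85 ± 0.27 (limma adjusted p = 0.0239). Cd3g, another part, also passed (limma adjusted p = 0.0195), at 0.02 and 0.80 in total epidermis and not well above background in unplucked young and aged HFSCs. The fibroblast marker Col1a2 fell by 4.68 in IFE and by 4.69 in total epidermis against HFSCs (limma adjusted p = 0.0121 and 0.0198). Col1a1, another one, also passed (limma adjusted p = 0.0468 and 0.0465) and was not well above background in IFE or total epidermis. Of the 6 fibroblast markers, only 3 were tested here, and Dcn, Pdgfra and Lum were not. The remaining tested one, Col3a1, did not pass. It differed by -0.94 ± 0.30 in IFE and, the other way, by 0.22 ± 0.30 in total epidermis (limma adjusted p = 0.182 and 0.734). Of 5 melanocyte markers, 4 were tested and only Pmel, a protein of the pigment granule, passed. It rose by 2.63 ± 0.33 in IFE and by 2.46 ± 0.33 in total epidermis against HFSCs (limma adjusted p = 0.0275 and 0.0373), while Tyrp1 was not well above background on any of the 12 arrays. The 4 tested melanocyte markers did not move as a set: 2 were above and 2 below 0 in IFE, and 3 above and 1 below in total epidermis. Dct was lower in IFE in both pairs (-1.99 ± 0.65, limma adjusted p = 0.192). The part of these markers in the differences of the hemidesmosome genes was not tested.

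By age in HFSCs, the 6 genes gave fitted differences from -0.26 (Dst) to 0.01 (Col17a1), with a median of -0.04 against 0.03 over all genes and adjusted p-values from 0.95 to 0.999. No gene of the array passed, and 4.83% had an unadjusted p under 0.05. Dst was lower in aged cells in both pairs (-0.28 and -0.24), like 25.8% of all genes, and Itgb4 and Cd151 turned direction with plucking, like Col17a1. Itgb4 was lower in aged cells by 0.53 without plucking and higher by 0.44 after it, and Cd151 lower by 0.62 and higher by 0.16. Plec was at 3.41 and 3.46 in young and aged HFSCs without plucking and Itga6 at 4.54 and 4.48.

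In cKO against control HFSCs, 4 of the 6 genes were below 0, with a median of -0.22 against -0.01 over all genes, and none passed. No gene of the array passed, and 6.47% had an unadjusted p under 0.05. Beside Cd151 and Col17a1, Itgb4 was lower in cKO cells in both pairs, by 0.51 and 0.53 (fitted -0.52 ± 0.40, limma adjusted p = 0.864). Being lower in both pairs held for 4 of the 6 members and for 25.7% of all genes. Among these 4, Dst was lower by only 0.01 and 0.12. Cd151 was lower at the probe in use but not at its second probe (fitted 0.23 ± 0.45). Dst, Plec and Itga6 differed by -0.07 ± 0.35, 0.13 ± 0.38 and 0.00 ± 0.34 (limma adjusted p = 0.989, 0.985 and 0.999). Without the unplucked control and cKO arrays, the plucked pair alone remains, with -0.43 for Col17a1, -0.53 for Itgb4, -1.89 for Cd151, -0.12 for Dst, 0.09 for Plec and -0.16 for Itga6. In control against young HFSCs, which share the control and young arrays with the comparisons above, all 6 were above 0, from 0.02 for Itga6 to 1.02 for Cd151, with limma adjusted p-values from 0.584 to 0.99. Their median was 0.23 against 0.02 over all genes, and the second Cd151 probe differed by -0.29 ± 0.45. No gene of the array passed there either, and 8.73% had an unadjusted p under 0.05.

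The partners of the hemidesmosome were taken as a list of 11 genes: the laminin chains Lama3 and Lamb3, the anchoring fibril collagen Col7a1, the keratins Krt5 and Krt14, the integrins Itga3 and Itgb1, and Lad1, Erbin, Fermt1 and Trp63. None of the 11 passed in any comparison. With plucking, 6 were above and 5 below 0, with a median of 0.05, beside -0.90 for the 6 hemidesmosome genes; the difference between the lists was not tested. Lamb3, a chain of the laminin that the hemidesmosome binds, was the lowest (-0.87 ± 0.28, limma adjusted p = 0.217, lower in 4 of 4 pairs), and Lad1, an anchoring filament protein also called ladinin, the highest (1.19 ± 0.70, limma adjusted p = 0.433). Trp63, which encodes the basal keratinocyte factor p63, had the smallest difference (0.05 ± 0.25, limma adjusted p = 0.931).

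Between populations the partners ran from Lamb3 (-0.67 ± 0.31, limma adjusted p = 0.322) to Lad1 (1.00 ± 0.39, limma adjusted p = 0.257) in IFE against HFSCs, with Krt5 nearest to 0 (0.08 ± 0.30, limma adjusted p = 0.92) and a median of 0.11. In total epidermis against HFSCs they ran from Lamb3 (-0.89 ± 0.31, limma adjusted p = 0.209) to Lad1 (0.93 ± 0.39, limma adjusted p = 0.276), with a median of -0.29, and Trp63 was nearest to 0 (-0.05 ± 0.30, limma adjusted p = 0.953). Between IFE and total epidermis, 10 of the 11 partners were above 0, with a median of 0.25, as were all 6 hemidesmosome genes. In cKO against control cells, Itga3, the α subunit of another laminin receptor, had the largest difference (-2.0 ± 0.93, limma adjusted p = 0.786). Its level was 2.18 on the unplucked control array and between -1.51 and 1.23 on the other 11.

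Of the proteases known to shed COL17A1, Adam9, Adam10 and Adam17, none passed in any comparison. Adam10 had levels of 3.14 (young), 2.59 (aged), 4.10 (control) and 3.51 (cKO) in unplucked HFSCs, and of 4.0, 3.94, 4.34 and 4.29 in plucked ones, in the same order. Its plucking difference was 0.81 ± 0.28 (SE, n = 4 pairs, limma adjusted p = 0.24), higher in 4 of 4 pairs, while Adam9 and Adam17 differed by -0.24 ± 0.24 and -0.23 ± 0.25 (limma adjusted p = 0.647 and 0.659). In aged against young HFSCs the 3 differed by -0.36 ± 0.34 (Adam9), -0.31 ± 0.39 (Adam10) and 0.33 ± 0.35 (Adam17), with limma adjusted p-values of 0.938, 0.947 and 0.938.

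Over the 12 arrays, Col17a1, Itgb4 and Dst had the most alike patterns among the members. Pearson's r was 0.92 between Col17a1 and Itgb4, 0.85 between Col17a1 and Dst and 0.79 between Itgb4 and Dst, and 0.95, 0.89 and 0.80 within the 8 HFSC arrays. Plec had an r of 0.60 with Col17a1, 0.75 with Itgb4 and 0.70 with Dst. Itga6 had an r of 0.02 with Col17a1, 0.19 with Itgb4, 0.25 with Dst, 0.51 with Plec and -0.37 with Cd151. Within HFSCs these were 0.54, 0.61, 0.32, 0.72 and 0.10. Plec and Cd151 also had a low r, 0.13 and, within HFSCs, 0.29. All of these are for the probe in use, with which the second probes of Itga6, Dst and Cd151 had an r of 0.664, 0.552 and 0.467. These values are descriptions over arrays that share the same contrasts, with no test. The SDs over the 12 arrays were 0.55 for Col17a1, 0.59 for Itga6, 0.49 for Itgb4, 0.46 for Dst and 0.45 for Plec, beside a median of 0.54 over 16024 genes.

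**Figure D4:**
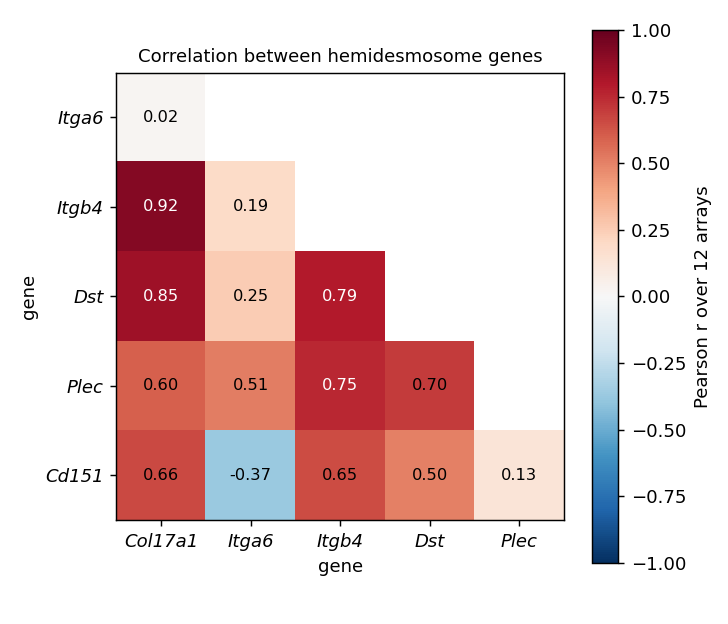
Pearson correlation of the levels of each pair of hemidesmosome genes over the 12 arrays, from -1 (blue) to 1 (red). Col17a1 and Itgb4 reach 0.92, while Itga6 has values from -0.37 to 0.51 with the other 5 genes.

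Outside the list, the patterns most like each member were taken from 16018 genes well above background on all 12 arrays. They were read at 1 probe per gene, with no test. For Col17a1 the named genes with the highest r were Wipf2 (0.945), an actin regulator, and Prss23 (0.935), a serine protease, after a probe without a gene symbol (0.971). For Itgb4 they were Osmr (0.928), the oncostatin M receptor, Mcl1 (0.92), a survival factor of the BCL2 family, and Maf (0.918), a transcription factor. For Dst they were Cdh13 (0.974), a cadherin, and the clock genes Cry2 (0.945) and Dbp (0.927). For Itga6 they were Adamts14 (0.965), Efemp1 (0.952) and Mettl7a1 (0.95). For Cd151 they were Egfr (0.948), the receptor of epidermal growth factor, NAP114476-1 (0.947, with an SD of only 0.17) and Iqcb1 (0.945). For Plec the highest values were lower, 0.873 for CB193388, 0.871 for Sema3c, a semaphorin, and 0.864 for a probe without a gene symbol.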

How the data were processed

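Cells and groups are those described above, with 1 array per group. The members and gene lists were chosen with earlier results of these data known. Per the file headers, spot intensities were made with Agilent Feature Extraction 10.7.3.1 (protocol GE1_107_Sep09) on mm9: the processed intensity deposited by the authors is background-subtracted and detrended. Per the labels, 1 to 10 ng of RNA was amplified before labelling. The table of log2 values deposited by the authors had a median of 0 per probe and followed the log2 processed intensities, centred per probe, with r of at least 0.9999; column medians ran from -0.2 to 0.17. Its making is not given in the sources used here.

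Here, control and outlier spots were left out (no spot was saturated), and the log2 of the processed intensity, less the 75th percentile of its array, was averaged per probe. Of 55681 probes, 28026 took their symbol by accession from RefSeq and 27655 kept the file's name. 11198 gene names had several probes. Genes above background on 2 or more arrays of a fit were tested with limma 3.58.1 in R 4.3.3, with data.table, version 1.17.8. The steps were lmFit, eBayes and Benjamini-Hochberg over all genes, with a threshold of 0.05. On simulated data with independent noise below the SD of each gene, only the mean estimates of the fit were checked, not its p-values. Spread came from matched pairs in additive fits: mouse type and plucking over 8 HFSC arrays (3 residual degrees of freedom), population and age over the 6 unplucked young and aged arrays (2) or over the 4 epidermal arrays (1), and interactions with plucking (1). All 6 genes passed the filter in each fit. Named genes are the members, the genes of other lists that passed or had the largest or smallest difference, and the 3 genes most like each member; some further list genes were named after their values were seen. One gene of the list of partners is not reported here, and the counts and medians of that list leave it out. Figures used Python 3.11.15 and matplotlib 3.10.9. The number of arrays limits the precision. Alternatives were normexp (offset 50) with quantile normalization, median scaling, the authors' table, no filter, the mean of a gene's probes and leaving out pairs.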

Additional observations from a re-analysis of the deposited data

How the results depend on the processing

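No paired analysis was possible because each group has 1 array, so groups share fewer than 2 replicate numbers for a block; the pairs in the fits are groups matched by age, genotype, plucking or population, not animals. With normexp and quantile normalization, 2 of the 6 genes passed for plucking, 1 for IFE and 1 for total epidermis against HFSCs, against 0 otherwise, and 1 (Itga6) passed for IFE with the mean of all probes. Over all genes, plucking went from 127 calls to 1116 with normexp, 22 without a filter and 273 with the mean of probes. It went to 0 without any 1 pair, within either slide and without the unplucked control and cKO arrays (chosen after seeing the data). That last setting repeats the estimates within slide 1. IFE against HFSCs went from 1134 to 605 without a filter, total epidermis against HFSCs from 933 to 1419 with normexp and 327 without a filter, and IFE against total epidermis from 0 to 3 with normexp and 5 with the mean of probes.

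Among the alternatives with a test, 345 values of single members kept direction and side of the threshold, 5 newly passed it and 34 changed sign. After rounding, 340 of the 345 have the same sign, and 5 have another sign or a 0. No member passed in the main fits, so these 345 values only stayed unpassed. That says little in comparisons where no gene of the array passed. The 48 values from 1 pair alone in the population and epidermal age comparisons have no test, and 38 kept and 10 changed sign: in IFE against HFSCs, Itgb4 (0.03), Dst (0.09) and Plec (-0.05); in total epidermis against HFSCs, Dst (0.01) and Plec (0.02); in IFE against total epidermis, Cd151 (-0.07); and by age in the epidermis, Col17a1 (0.01), Itgb4 (-0.07), Dst (-0.01) and Cd151 (-0.25). In aged against young HFSCs, median scaling gave -0.25 for Col17a1 and Itga6, the authors' table -0.02 for both, and normexp 0.14 for Itgb4 and 0.10 for Plec. There, the estimates without the plucked and without the unplucked pair were -0.52 and 0.53 for Col17a1, -0.05 and 0.06 for Itga6, -0.53 and 0.44 for Itgb4, 0.05 and -0.13 for Plec, and -0.62 and 0.16 for Cd151. For plucking, Itga6 was 0.96 with the mean of probes and 0.05 within slide 2. In cKO against control, Itga6 was -0.13 with median scaling, -0.01 in the authors' table, -0.33 with the mean of probes and -0.16 without the unplucked pair. There, Dst was 0.03 with the mean of probes and Plec -0.01 with median scaling. In control against young, the same estimates were -0.08 and 0.55 for Col17a1, -0.26 and 0.29 for Itga6, 0.27 and -0.19 for Dst, and -0.09 and 0.55 for Plec, and normexp gave -0.09 for Itga6 and -0.08 for Dst. In aged against young epidermis, Itga6 was -0.07 with median scaling and 0.00 with normexp, and Dst -0.05 and, with the mean of probes, -0.26. For the interaction with age, Itga6 was 0.09 with median scaling and Dst -0.01 with the mean of probes, and for that with cKO, Itga6 was 0.12 and 0.63 in the same settings. The cause of these changes was not tested. Median scaling moved the median of all genes by -0.26 in aged against young HFSCs, -0.13 in aged epidermis, -0.14 in cKO, 0.18 in control against young, -0.20 in total epidermis against HFSCs, and 0.25 and 0.16 in the interactions.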
